A study of Mus musculus with 21 samples.

Results

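The red blood cell genes *Hba-a1*, *Hba-a2*, *Hbb-bs*, *Hbb-bt*, *Alas2* and *Slc4a1*, were followed through 12 inguinal lymph node libraries and 9 skin libraries. These 6 of 55491 gene rows were chosen by their symbols, and they were picked after earlier results had shown that their levels differ between the 4 node groups. Their node levels and node differences are therefore given as a description, with no p-value. RNA was sequenced from BALB/c wild-type (WT) mice and from *Ifnk* transgenic (TG) mice, in which the keratin 14 promoter drives interferon κ in the epidermis. The transgene was made on C57BL/6 and backcrossed to BALB/c. The 4 node groups were WT without treatment (samples 1, 2 and 3), WT with UVB (samples 7, 8 and 9), *Ifnk* TG without treatment (samples 4, 5 and 6) and *Ifnk* TG with UVB (samples 10, 11 and 12). The node mice are recorded at 12 weeks of age for the series as a whole, and the library labels state no age for them. UVB was given at 250 mJ/cm2 and 310 nm on 3 days a week for 2 weeks, followed by 2 weeks of observation. The 3 skin groups, all at 12 months of age, were WT (samples 8, 9 and 10), nonlesional (NL) *Ifnk* TG (samples 2 and 3) and lesional (L) *Ifnk* TG (samples 4, 5, 6 and 7). Nodes were pressed through a strainer before lysis, and no red cell lysis step is described for them. The study's harvest procedure describes heparin in PBS flushed through the heart to clear the kidneys of blood, before it lists removal of the inguinal nodes. How far this flush cleared the nodes of blood was not tested.

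Hemoglobin is a tetramer of alpha and beta globin chains, each of which holds a heme. Developing red cells in the marrow fill with globin mRNA, lose their nucleus and leave as reticulocytes, which still carry mRNA when they enter the blood. *Hba-a1* and *Hba-a2* encode adult alpha globin, and *Hbb-bs* and *Hbb-bt* encode adult beta globin. *Alas2* encodes the erythroid enzyme of the first step of heme synthesis. *Slc4a1* encodes band 3, the anion exchanger that anchors the red cell membrane to its skeleton. In a lymph node, red cells belong to the blood in its vessels and are no part of its resident lymphoid population.

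In GENCODE M21 on GRCm38, *Hba-a1* (ENSMUSG00000069919) spans chr11:32283511-32284465 and *Hba-a2* (ENSMUSG00000069917) spans chr11:32296489-32297298, both on the plus strand. *Hbb-bs* (ENSMUSG00000052305) spans chr7:103826534-103828096 and *Hbb-bt* (ENSMUSG00000073940) spans chr7:103812524-103813996, both on the minus strand. *Alas2* (ENSMUSG00000025270) lies on the plus strand of chrX:150547375-150570638, and *Slc4a1* (ENSMUSG00000006574) on the minus strand of chr11:102348824-102366203. The members of each globin pair are near-copies, so the division of reads within a pair is uncertain. Of the 455 windows of 100 bases in the longest coding transcript of *Hba-a2*, 74.5% occur whole in that of *Hba-a1*. Of the 529 windows of *Hbb-bs*, 62.6% occur whole in *Hbb-bt*. The reference holds the C57BL/6 form of the beta cluster, whereas BALB/c mice carry another haplotype with the genes *Hbb-b1* and *Hbb-b2*. How reads of that haplotype were divided between *Hbb-bs* and *Hbb-bt* was not tested, and sums over each pair are given beside the single genes.

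The stretches just before the start sites are shown because 5 of the 6 genes have an entry in the RefSeq promoter table (GRCm38.p6) and because their levels moved together. The 250 bases before the RefSeq start are printed on the strand of the gene. Capitals mark 4 short motifs, found on either strand: GATAA (the core that GATA factors recognise), CACCC (recognised by Krüppel-like factors), CCAAT and TATAA. The regions are chr11:32283422-32283671 for *Hba-a1* (plus), chr7:103827929-103828178 for *Hbb-bs* (minus), chr7:103813924-103814173 for *Hbb-bt* (minus) and chrX:150547167-150547416 for *Alas2* (plus).
Hba-a1: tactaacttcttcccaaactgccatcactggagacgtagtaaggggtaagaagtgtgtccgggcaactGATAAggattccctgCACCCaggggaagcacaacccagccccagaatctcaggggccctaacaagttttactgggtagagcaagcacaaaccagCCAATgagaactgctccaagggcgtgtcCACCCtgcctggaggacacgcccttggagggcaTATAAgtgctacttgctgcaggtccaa
Hbb-bs: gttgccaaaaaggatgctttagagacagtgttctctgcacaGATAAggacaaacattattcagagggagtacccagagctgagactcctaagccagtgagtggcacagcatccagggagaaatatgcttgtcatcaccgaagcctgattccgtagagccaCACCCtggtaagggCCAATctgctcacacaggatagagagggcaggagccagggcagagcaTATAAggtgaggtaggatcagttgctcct
Hbb-bt: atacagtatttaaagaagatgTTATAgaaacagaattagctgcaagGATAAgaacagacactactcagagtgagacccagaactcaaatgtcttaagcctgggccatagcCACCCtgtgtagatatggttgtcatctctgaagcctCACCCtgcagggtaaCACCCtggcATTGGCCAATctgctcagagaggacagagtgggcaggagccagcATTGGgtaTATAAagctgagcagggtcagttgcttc
Alas2: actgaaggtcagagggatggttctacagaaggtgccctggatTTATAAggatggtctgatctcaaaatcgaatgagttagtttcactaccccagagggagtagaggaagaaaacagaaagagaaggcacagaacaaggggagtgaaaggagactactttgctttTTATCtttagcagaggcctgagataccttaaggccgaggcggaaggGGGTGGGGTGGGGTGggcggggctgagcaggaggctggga

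The window of *Hba-a2* at chr11:32296242-32296491 was identical to that of *Hba-a1* at all 247 bases compared after a shift of 3 bases. *Hbb-bs* and *Hbb-bt* matched at 51% of 249 bases compared at a fixed shift without gaps. This share can understate their likeness where bases were inserted or lost. Each of the 4 globin windows held all 4 motifs, and the *Alas2* window held all but CCAAT. Counting back from the start, the TATAA motif nearest to it began at -27 in *Hba-a1*, -29 in *Hbb-bs* and -28 in *Hbb-bt*. In *Alas2* it began much farther from the start, at -207. The GATAA motif began at -182 in *Hba-a1*, -209 in *Hbb-bs* and -204 in *Hbb-bt*, and at -86 in *Alas2*, where it lay on the opposite strand. Among 32851 windows of the same length in the table, GATAA was in 22.6%, CACCC in 52%, CCAAT in 33.8% and TATAA in 22.8%, and all 4 together in 0.968%. These matches are a description of letters and not of bound sites. *Slc4a1* is named only.

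Lymph node libraries held between 27599809 and 36428435 counts, with a median of 33305527, and skin libraries between 40499078 and 56511276. Values are counts per 1000000 counts (CPM) after TMM scaling. A count of 0 in a node library allows up to 3 counts, for example 9.18e-06% of the library of WT sample 1, a floor that covers counting error only. The nodes carried their lymphoid markers in every library, with between 8696 and 11983 counts of *Cd3e*, which encodes a chain of the T cell receptor complex. The labels name no mouse for a library, so the spread given here is the spread between samples. All 6 genes passed the filter on low counts in both tissues.

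*Hbb-bs* was the member with the most counts. Unirradiated WT nodes held 1749, 1675 and 3273 counts in samples 1, 2 and 3, and unirradiated *Ifnk* TG nodes held 4272, 4167 and 3396 in samples 4, 5 and 6. After UVB, WT nodes held 184, 125 and 508 counts in samples 7, 8 and 9, and *Ifnk* TG nodes held 353, 1253 and 2172 in samples 10, 11 and 12. All 6 irradiated nodes except *Ifnk* TG sample 12 lay below every unirradiated node. *Ifnk* TG sample 10 lay within the range of irradiated WT nodes and apart from the other two nodes of its group. Mean levels were 110.5 ± 11.1 CPM in *Ifnk* TG, 68.6 ± 27.6 CPM in WT, 40.1 ± 28.3 CPM in *Ifnk* TG with UVB and 8.55 ± 6.10 CPM in WT with UVB (SD, n = 3 each).

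The alpha globin genes followed the same order. *Hba-a2* held 1448, 1206 and 2829 counts in WT samples 1, 2 and 3, and 170, 110 and 382 in WT UVB samples 7, 8 and 9. It held 3844, 3361 and 3176 counts in *Ifnk* TG samples 4, 5 and 6, and 299, 1163 and 1642 in *Ifnk* TG UVB samples 10, 11 and 12. The lowest and highest *Ifnk* TG nodes lay close together relative to their level, and WT sample 3 lay nearer to them than to its own group. *Hba-a1* ranged from 48 counts in WT UVB sample 8 to 2650 in *Ifnk* TG sample 4. Its mean was 65.6 ± 5.20 CPM in *Ifnk* TG, 40.3 ± 20.1 CPM in WT, 23.6 ± 15.6 CPM in *Ifnk* TG with UVB and 5.07 ± 4.54 CPM in WT with UVB (SD, n = 3 each).

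*Hbb-bt*, *Alas2* and *Slc4a1* were measured at far fewer counts. *Hbb-bt* held 97, 105 and 192 counts in WT nodes, 259, 286 and 178 in *Ifnk* TG nodes, 12, 3 and 43 in WT UVB nodes and 23, 75 and 143 in *Ifnk* TG UVB nodes. *Alas2* held 69, 70 and 143 counts in WT nodes, 179, 155 and 117 in *Ifnk* TG nodes, 7, 11 and 22 in WT UVB nodes and 10, 38 and 69 in *Ifnk* TG UVB nodes. Both genes were lower in each irradiated group than in the unirradiated group of the same genotype, with no overlap of the samples. *Slc4a1* held 12, 7 and 115 counts in WT nodes, 45, 89 and 58 in *Ifnk* TG nodes, 0, 1 and 0 in WT UVB nodes and 2, 21 and 7 in *Ifnk* TG UVB nodes. WT sample 3 carried most of the *Slc4a1* counts of its group and had the highest *Slc4a1* level of all 12 nodes, at 3.53 CPM. With 1 count in the 3 irradiated WT nodes against 134 in the unirradiated ones, the ratio of summed counts per effective library size was 128, with a 95% counting interval of 22.6 to 5104 that leaves out the spread between samples.

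**Figure D1:**
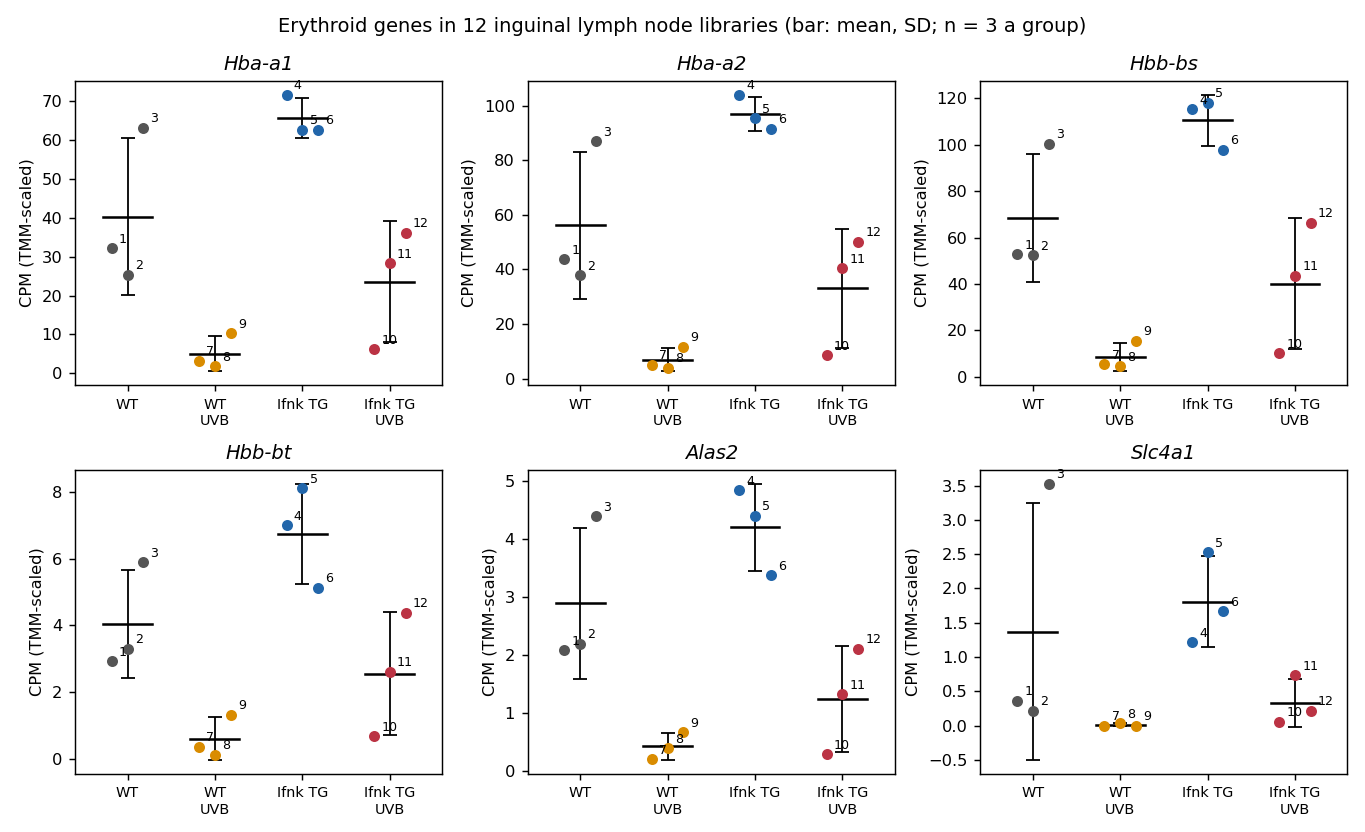
TMM-scaled CPM of each of the 6 erythroid genes in every node library, by group. Points are libraries with their sample numbers, and bars are the mean and SD of 3 libraries, which for *Slc4a1* and *Hbb-bt* can reach below 0. For every gene the 3 WT UVB samples lie below the 3 WT samples, and *Ifnk* TG UVB sample 10 lies lowest in its group.

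Every gene had the same order of group means, which ran from *Ifnk* TG through WT and *Ifnk* TG with UVB to WT with UVB. Neighbours in this order mostly overlapped. Samples of *Ifnk* TG and WT did not overlap for *Hba-a2* alone, those of *Ifnk* TG with UVB and WT with UVB did not overlap for *Slc4a1* alone, and those of WT and *Ifnk* TG with UVB overlapped for all 6 genes. Per kilobase of exon, the mean over the 12 nodes was 74.2 CPM for *Hbb-bs*, 72.4 for *Hba-a2*, 41.4 for *Hba-a1*, 4.96 for *Hbb-bt*, 0.912 for *Alas2* and 0.18 for *Slc4a1*. The 4 globins together made up between 0.0010% of a library, in WT UVB sample 8 with 286 counts, and 0.0303%, in *Ifnk* TG sample 4 with 11025 counts. These are bulk samples, so fewer red cells in a node and less of these RNAs per red cell cannot be told apart.

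Fold changes were read from the edgeR fit across all 16173 tested genes. In WT nodes, UVB samples were lower than unirradiated samples by a log2 fold change of -3.01 (SE 0.67) for *Hba-a2*, -3.00 (SE 0.70) for *Hbb-bs*, -2.98 (SE 0.77) for *Hba-a1*, -2.73 (SE 0.76) for *Hbb-bt* and -2.74 (SE 0.61) for *Alas2*. The fitted value for *Slc4a1* was -6.56 (SE 1.63), but it rests on 1 count in the irradiated group and depends on the prior count. The median over the 6 genes was -2.99, also with *Slc4a1* set at the lower bound of its counting interval, against -0.00 over all tested genes. Samples did not overlap for 6 of 6 members, and over all tested genes unirradiated WT samples lay wholly above irradiated ones in 17.3%. Over all tested genes, 4.98% were called at an adjusted p under 0.05 in edgeR's quasi-likelihood test, and 2.06% were called lower. Calls of members are left out for all node comparisons, since the members were chosen on node values.

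In *Ifnk* TG nodes the UVB samples were also lower, by a smaller amount. The log2 fold change was -1.55 (SE 0.61) for *Hba-a2*, -1.46 (SE 0.64) for *Hbb-bs* and -1.76 (SE 0.55) for *Alas2*, and the median over the 6 genes was -1.51 against 0.02 over all tested genes. Samples did not overlap for 6 of 6 members, against 7.11% of tested genes with *Ifnk* TG wholly above *Ifnk* TG with UVB. Over all tested genes, edgeR called 0% of 16173, although 1507 had an unadjusted p under 0.05 and DESeq2 called 137. Without *Ifnk* TG UVB sample 12, edgeR called 236 genes. The median was -1.05 without sample 10 and -2.07 without sample 12. The difference between the genotypes in their UVB response, taken as an interaction, had a median of 1.48 over the members. It was 1.53 (SE 0.92) for *Hbb-bs* and 0.98 (SE 0.80) for *Alas2*. Again 0% of genes were called by edgeR, with 881 at an unadjusted p under 0.05 and 8 by DESeq2.

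Between the genotypes, the *Ifnk* TG group means lay above the WT group means with and without UVB, within wide errors. In unirradiated nodes the log2 fold change was 0.79 (SE 0.60) for *Hba-a2*, 0.69 (SE 0.63) for *Hbb-bs* and 0.54 (SE 0.52) for *Alas2*, with a median of 0.70 over the members, or 1.15 without WT sample 3. Samples were apart for 1 of 6 members, where 5.52% of tested genes had *Ifnk* TG wholly above WT. In UVB nodes the median over the members was 2.21, with 2.25 (SE 0.66) for *Hba-a2* and 1.52 (SE 0.61) for *Alas2*. Samples were apart for 1 of 6 members, *Slc4a1*, against 5.39% of tested genes. Neither comparison called a gene by edgeR (0% each), with 549 and 1131 genes at an unadjusted p under 0.05. DESeq2 called 2 and 19 genes. The comparisons share groups, so their values are set side by side and not counted as separate evidence.

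**Figure D2:**
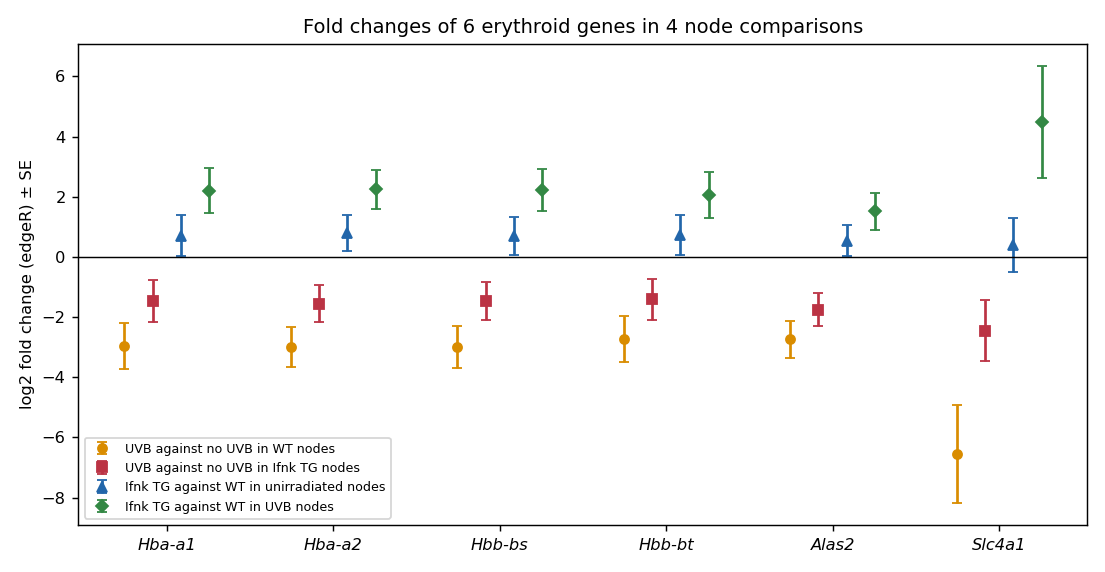
Log2 fold changes of the 6 erythroid genes from edgeR with standard errors, for UVB against no UVB in each genotype and for *Ifnk* TG against WT with and without UVB. The UVB values are below 0 for every gene in both genotypes and run lower in WT. The *Slc4a1* values that involve WT UVB nodes rest on 1 count.

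*Ifnk* TG sample 10 also lay near the irradiated WT nodes over other genes. Of the 801 other genes called between WT UVB and WT nodes, sample 10 lay nearer to the WT UVB mean than to the WT mean for 84.1%. The share was 53.8% for sample 11 and 44.4% for sample 12, and between 9.36% and 16.7% for the 3 unirradiated *Ifnk* TG nodes. The part of this wider difference between samples in the erythroid values was not tested.

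Within a node, the erythroid genes kept close to fixed proportions. Over the 12 nodes, the Pearson correlation of log2 CPM between 2 members ranged from 0.82, for *Hbb-bt* and *Slc4a1*, to 0.997, for *Hba-a2* and *Hbb-bs*, a description over libraries that share their depth scaling. *Hba-a2* counts per *Hba-a1* count had a median of 1.44 in nodes and ran from 1.14 to 2.29, both extremes in WT UVB nodes. *Hbb-bt* made up a median of 5.81% of the beta counts. *Alas2* had between 11.3 and 18.4 counts per 1000 globin counts in 11 nodes, and 38.5 in WT UVB sample 8, which rests on 11 *Alas2* counts. *Slc4a1* moved more freely, from 0 to 0.804 counts per *Alas2* count, with the highest value in WT sample 3.

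Of 4 such proportions compared between nodes and skin, 1 passed the test. Alpha counts (*Hba-a1* and *Hba-a2*) per beta count (*Hbb-bs* and *Hbb-bt*) ran from 1.133 to 1.497 in the 12 nodes and from 0.8293 to 1.112 in the 9 skin libraries. The highest skin library was thus below the lowest node library. The geometric mean was 1.34 in nodes and 0.961 in skin, a log2 difference of 0.48 with an exact two-sided permutation p of 3.4e-06, the smallest that the 293930 arrangements can give (1.36e-05 after Benjamini-Hochberg adjustment over 4 proportions). The *Hba-a2* to *Hba-a1* ratio (log2 difference 0.01, exact permutation p = 0.934, adjusted 0.934), the *Hbb-bt* share (log2 difference -0.18, exact permutation p = 0.261, adjusted 0.523) and *Alas2* per globin (log2 difference -0.17, exact permutation p = 0.571, adjusted 0.762) did not pass. The 4 node groups overlapped in the alpha to beta ratio, with means of 1.302 ± 0.148 in WT, 1.315 ± 0.0906 in WT with UVB, 1.393 ± 0.128 in *Ifnk* TG and 1.357 ± 0.135 in *Ifnk* TG with UVB (SD, n = 3 each), while their globin counts ran from 286 to 11025. Nodes and skin were prepared separately, from mice recorded at 12 weeks and at 12 months of age. *Xist* held 3 to 42 counts in nodes and 3297 to 9353 in skin libraries other than L sample 6 and NL sample 3. NL sample 3 and L sample 6, with 13 and 6 *Xist* counts, had alpha to beta ratios of 1.112 and 0.9272. The labels give no sex, and its part in the difference was not tested. Tissue, age and preparation cannot be told apart. The 4 proportions were chosen after the counts had been seen. The permutation takes libraries as exchangeable, although they come from 4 node groups and 3 skin groups. NL skin, at 1.079 to 1.112, lay above WT skin, at 0.9497 to 1.004. The permutation p is therefore a description.

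**Figure D3:**
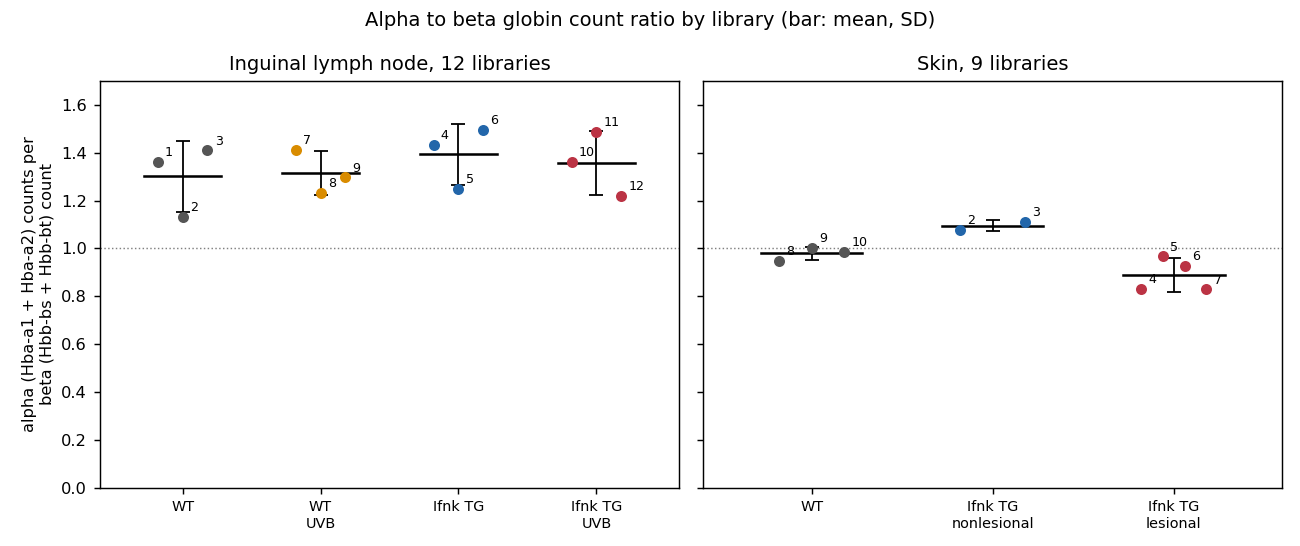
Alpha globin counts per beta globin count in each of 12 node libraries and 9 skin libraries, by group. Points are libraries with their sample numbers, bars are the mean and SD, and the dotted line marks equal counts. The lowest node library is at 1.133 and the highest skin library at 1.112.

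In skin, the globins showed no called difference between the groups, while *Slc4a1* was higher in lesions. *Slc4a1* held 23, 3 and 4 counts in WT samples 8, 9 and 10, 7 and 7 in NL samples 2 and 3, and 152, 436, 168 and 344 in L samples 4, 5, 6 and 7. Every lesional library lay above every other. *Slc4a1* rose in L against WT skin by a log2 fold change of 4.63 (SE 0.79, edgeR adjusted p = 0.00217) and in L against NL skin by 5.25 (SE 0.99, edgeR adjusted p = 0.00721). The second call was lost when either NL library was left out, which leaves 1 sample whose spread is assumed to be that of the other groups, while the log2 fold change stayed at 4.78 or above over all fits without 1 library. In nodes, by contrast, the order of *Slc4a1* over the groups was that of the globins.

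*Slc4a1* was thus the 1 member of 6 called in L against WT skin, where 43.1% of 19101 tested genes were called and 23% were called higher. It was also the 1 member called in L against NL skin, where 25% were called and 13.2% were called higher. Lesional samples lay wholly above WT samples for 1 of 6 members, against 26% of tested genes. In NL against WT skin no member was called. There edgeR called 0% of genes, with 1465 at an unadjusted p under 0.05 and 80 by DESeq2. The median log2 fold change over the 6 genes was 0.33 in L against WT (0.06 over all tested genes), 0.54 in L against NL (0.03) and -0.24 in NL against WT (-0.00).

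The skin globins varied most within the lesional group. *Hbb-bs* held 9020, 4229 and 7436 counts in WT skin, 8500 and 3383 in NL skin and 8207, 17738, 9392 and 1080 in L skin. L sample 5 was the highest and L sample 7 the lowest of the 9 libraries. For *Hbb-bs* in L against WT skin the log2 fold change was 0.32 (SE 0.81, edgeR adjusted p = 0.779) and for *Alas2* 0.43 (SE 0.52, edgeR adjusted p = 0.536). The median over the members in this comparison was -0.42 without L sample 5 and 0.70 without L sample 7, and in L against NL skin -0.13 without L sample 5. In NL against WT skin it was 0.09 without NL sample 3. L sample 7 held 69.8 *Alas2* counts per 1000 globin counts, where the other skin libraries held between 12.4 and 20.7. Per *Alas2* count, *Slc4a1* held between 0.506 and 2.32 counts in L skin and between 0.0163 and 0.0975 in WT and NL skin.

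**Figure D4:**
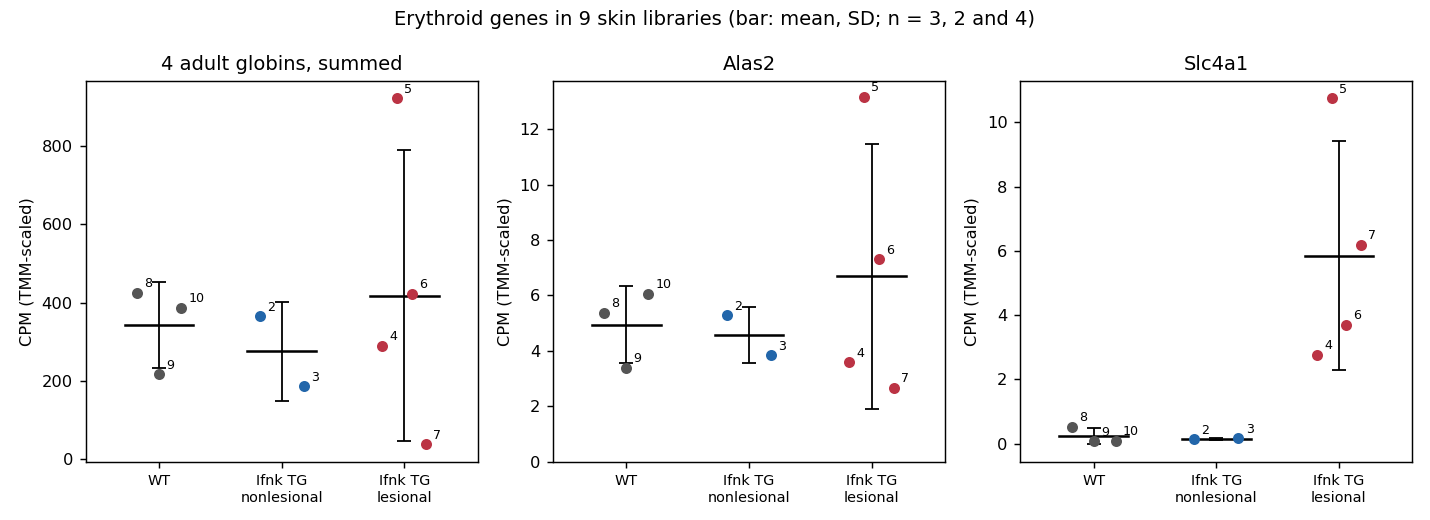
TMM-scaled CPM of the 4 adult globins summed, *Alas2* and *Slc4a1* in 9 skin libraries, by group. Points are libraries with their sample numbers and bars are the mean and SD of 3, 2 and 4 libraries. *Slc4a1* is between 2.77 and 10.8 CPM in the 4 lesional libraries and at most 0.525 CPM in the others, while the globins and *Alas2* overlap between the groups.

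The other genes of the red cell program were taken from 6 lists of 62 genes, of which 59 have a row in the files and 3 (*Hbb-b1*, *Hbb-b2* and *Ahsp*) were not analysed here. In nodes 53 of the 59 had a count and 35 were tested. In WT UVB against WT nodes 4 passed the threshold (edgeR), 3 of them higher and 1 lower, where 4.98% of tested genes were called. The median over the 35 was -0.22. None passed in the other 4 node comparisons, with 1, 0, 4 and 0 genes at an unadjusted p under 0.05 in *Ifnk* TG UVB, in the genotypes without UVB, in the genotypes with UVB and in the interaction, and 0 called by DESeq2 in each. The 4 calls became 0 with *Xist* as a covariate, which held only 3 to 42 counts in nodes. Without 1 library they became 0 (WT sample 3, *Ifnk* TG samples 4 and 6 and each WT UVB sample), 2 (WT sample 1, *Ifnk* TG sample 5 and *Ifnk* TG UVB sample 11), 9 (*Ifnk* TG UVB sample 10) or 10 (*Ifnk* TG UVB sample 12).

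Among 8 tested genes of the red cell membrane, 1 was called lower in WT nodes after UVB and is not reported here by name. The other 7 did not pass. Of these 7, *Aqp1*, a water channel also found in endothelium, had a log2 fold change of -2.03 (SE 1.10), and *Sptb*, the beta chain of spectrin, -0.22 (SE 0.22). *Aqp1* also stood apart in *Ifnk* TG UVB sample 11, with 541 counts where the other nodes held between 7 and 213.

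Of 6 tested genes of iron import, 2 rose in WT nodes after UVB and none fell. *Tfrc*, the transferrin receptor, rose by a log2 fold change of 0.74 (SE 0.19, edgeR adjusted p = 0.0456) and *Slc25a37*, the mitochondrial iron carrier mitoferrin, rose by 0.84 (SE 0.20, edgeR adjusted p = 0.0396). *Slc25a38* had a log2 fold change of 0.60 (SE 0.16, edgeR adjusted p = 0.0536) and *Slc11a2* of 0.22 (SE 0.12). Of 7 genes of heme synthesis, *Cpox* rose by 0.53 (SE 0.12, edgeR adjusted p = 0.0364) and 6 did not pass. Among these were *Fech*, which inserts iron into heme, at -0.33 (SE 0.09, edgeR adjusted p = 0.0585) and *Urod* at -0.35 (SE 0.11, edgeR adjusted p = 0.0705). *Tfrc*, *Slc25a37*, *Cpox* and *Fech* are used by many cell types, and they held between 630 and 3432 counts in each node.

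None of 3 tested erythroid transcription factors and none of 11 tested genes of reticulocyte maturation and red cell metabolism passed. *Gata1* had a log2 fold change of 0.01 (SE 0.19) and *Zfpm1*, its cofactor FOG1, of -0.31 (SE 0.14). *Bnip3l*, which clears mitochondria from reticulocytes, was at -0.14 (SE 0.08) and *Xpo7* at 0.02 (SE 0.08). Among the globins of other stages, *Hbb-bh1*, *Hbb-y* and *Hba-x*, which serve the embryo, were at 0 in all 12 nodes, and *Hbq1a* and *Hbq1b* held 1 and 3 counts in all.

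Erythroid genes below a mean of 1 CPM differed between libraries of a group. Of 24 such genes with a count, 22 had one in WT sample 3, with 226 counts in all, and 17 and 14 in WT samples 1 and 2, with 109 and 96 counts. The *Ifnk* TG nodes held 169, 293 and 152 counts over between 18 and 20 of the genes. The WT UVB nodes held 101, 81 and 69 counts and the *Ifnk* TG UVB nodes 115, 159 and 87. *Rhd*, which encodes a protein of the Rh complex of the red cell surface, held 15 counts in WT sample 3 and 10, 8 and 7 in *Ifnk* TG nodes, and 0 or 1 elsewhere. *Epb42*, which encodes the membrane protein 4.2, held 10 counts in WT sample 3 and 1, 12 and 10 in *Ifnk* TG nodes, and at most 1 elsewhere. Other membrane genes of the list were spread otherwise. *Icam4* held 13, 15 and 8 counts in WT nodes and 12, 11 and 5 in WT UVB nodes, *Mfsd2b* was highest in *Ifnk* TG UVB sample 10 with 52 counts, and *Dmtn* was highest in *Ifnk* TG UVB sample 11 with 93. Sampling noise is large at these counts, and 17 of the 24 genes were too low to be tested.

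**Figure D5:**
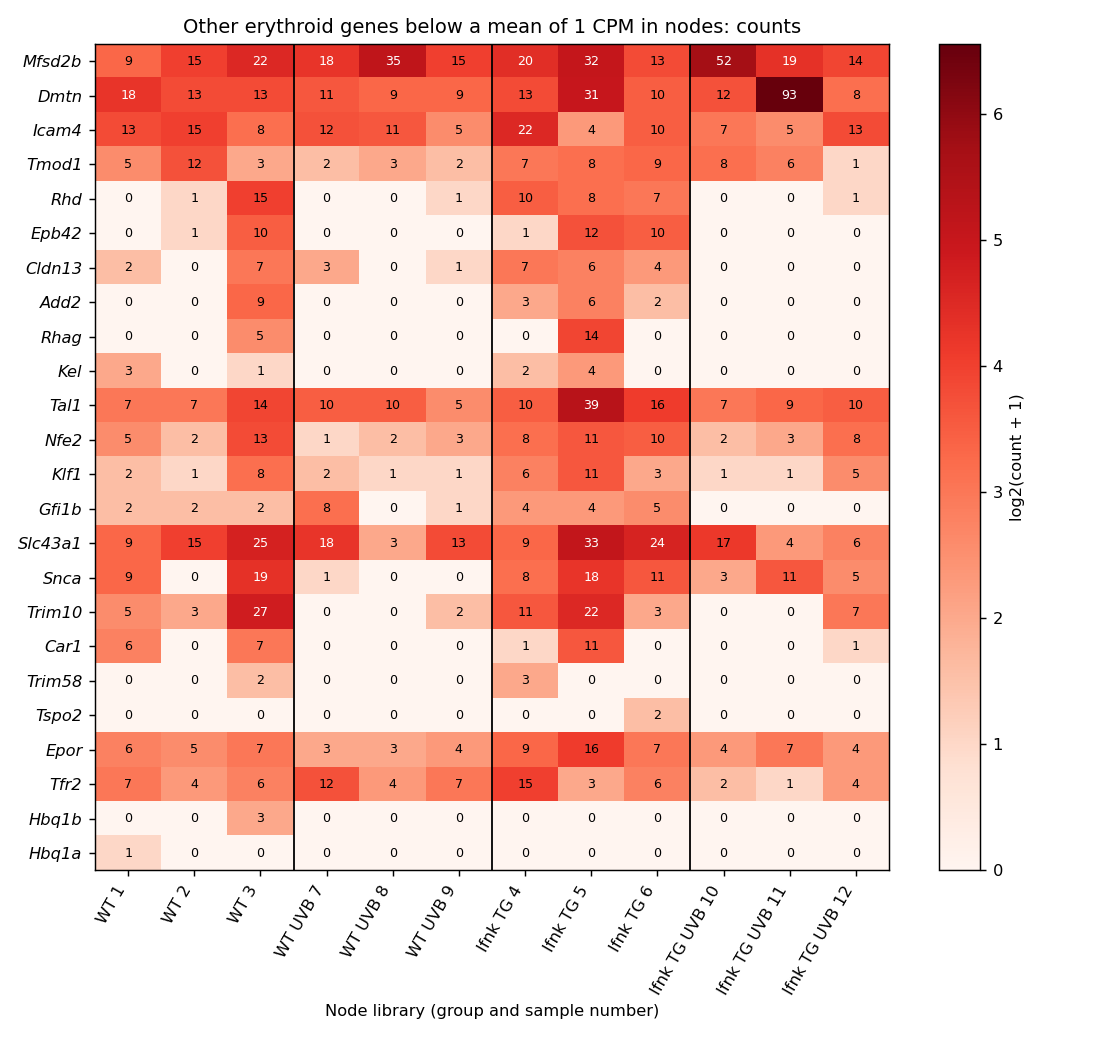
Counts of 24 other erythroid genes with a mean below 1 CPM in each of 12 node libraries, written in each cell and coloured by log2(count + 1). Lines separate the groups. WT sample 3 and the 3 *Ifnk* TG nodes hold most counts of *Rhd*, *Epb42*, *Add2* and *Rhag*, while *Icam4*, *Mfsd2b* and *Dmtn* are counted in all groups.

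Markers of other cells that come with blood or vessels were read beside these values. The summed level of 11 neutrophil genes was 4.44 to 7.62 CPM in WT nodes, 2.51 to 4.39 in WT UVB, 8.60 to 13.8 in *Ifnk* TG and 3.26 to 15.0 in *Ifnk* TG UVB nodes. Its group medians had the order of the globins, at 7.31, 2.76, 11.5 and 3.55 CPM. The genes of the list differed in WT sample 3. In WT samples 1, 2 and 3, *S100a9* held 13, 40 and 85 counts and *S100a8* 8, 27 and 27. *Cxcr2*, with 86, 121 and 58 counts, and *Mmp9*, with 29, 44 and 25, were lowest in sample 3. The 5 precursor genes of marrow granulocytes reached 0.768 CPM in WT sample 3, where *Mpo* held 16 counts, and at most 0.312 CPM in any other node. Platelet genes summed to 3.01 to 3.84 CPM in WT and 2.15 to 2.91 in WT UVB nodes, and *Gp6*, a collagen receptor of platelets, was at 0 in all 12. The 5 monocyte genes summed to 134.9 to 159.4 CPM in WT and 129.1 to 148.1 in WT UVB nodes, and the 5 mast cell and basophil genes to 1.57 to 4.08 and 1.14 to 2.47 CPM. None of the tested neutrophil or platelet genes was called in a node comparison, and none of the precursor genes was tested. Their part in the erythroid values was not tested.

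The 4 genes of high endothelial venules, the vessels by which lymphocytes enter a node, summed to 29.5 to 31.4 CPM in WT, 9.56 to 19.3 in WT UVB, 33.0 to 53.3 in *Ifnk* TG and 16.2 to 21.7 in *Ifnk* TG UVB nodes. *Glycam1*, a ligand of L-selectin made by these vessels, fell after UVB in WT nodes by 1.34 (SE 0.26, edgeR adjusted p = 0.0254) on the log2 scale. *Enpp2*, which makes lysophosphatidic acid, also fell, with a log2 fold change of -1.502 (SE 0.35, edgeR adjusted p = 0.0411). The other 2 venule genes were not called. *Chst4* held 13, 17 and 14 counts in WT nodes and 6, 4 and 7 in WT UVB nodes. *Fut7* went the other way, with 60, 55 and 42 counts in WT nodes and 106, 68 and 83 in WT UVB nodes. Of 5 genes of blood endothelium, *Pecam1* fell by 0.43 (SE 0.09, edgeR adjusted p = 0.0313) and 4 were not called. Among these, *Kdr* held 149, 106 and 152 counts in WT nodes and 70, 63 and 88 in WT UVB nodes. *Cdh5* overlapped, with 190, 156 and 208 counts in WT nodes and 201, 158 and 163 in WT UVB nodes. *Ccr7* fell by 0.43 (SE 0.09, edgeR adjusted p = 0.0261) among 5 T cell genes, and none of 5 B cell genes was called. The 9 genes of heme and iron recycling, led by the ferritin chain *Fth1*, summed to 1575 to 1748 CPM in WT and 1272 to 1377 in WT UVB nodes with 0 called. The called venule and endothelial genes thus differed in the same direction as the erythroid genes in WT nodes, while *Fut7* and *Cdh5* did not follow. The part of all these genes in the erythroid values was not tested.

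In lesional skin, 19 of 42 tested other erythroid genes were called against WT (edgeR), where 43.1% of all tested genes were called. Of these 9 rose, where 23% of all tested genes were called higher, and 10 fell. These shares are near those of all genes and are no result about the erythroid genes. *Tfrc* rose by 1.38 (SE 0.17, edgeR adjusted p = 0.000524) and *Slc25a37* by 2.15 (SE 0.27, edgeR adjusted p = 0.000514). Of the 10 that fell, 5 were membrane genes, and *Sptb*, *Ank1* and *Tmod1*, which striated muscle also uses, fell by between 3.59 and 3.63 on the log2 scale. *Kel*, a red cell surface protein, was at 0 in all 4 L libraries with 34 counts in WT skin, at least 17.6-fold lower against 3 counts over the group. No other membrane gene rose with *Slc4a1* apart from *Add2*, at 1.55 (SE 0.31, edgeR adjusted p = 0.00424). The summed neutrophil genes were 77.4 to 625 CPM in L and 38.8 to 53.0 in WT skin, and their part in the *Slc4a1* values was not tested.

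The genes whose node pattern was most like that of the erythroid genes were sought among the 16167 other tested genes, by the Pearson correlation of log2 CPM with the mean over the 6 genes in 12 libraries. The closest were *R3hdm4* (r = 0.942), *Tpm2* (0.94), *Acaa2* (0.937), *Fech* (0.933), *Hsd17b4* (0.923), *Fam76a* (0.917), *Snapc2* (0.916), *Oaz2* (0.914), *Ramp1* (0.914) and *Hars* (0.911). Without WT UVB samples 7 and 8, the libraries farthest from the median, their r was between 0.821 and 0.943. The size of the differences was far smaller for most of them. *R3hdm4* spanned 0.31 on the log2 scale over the 12 nodes and *Fech* 0.45, where *Hbb-bs* spanned 4.68 and *Hba-a1* 5.31. *Tpm2*, a tropomyosin, spanned 2.77, from 5 to 59 counts. Of the other tested genes, 418 had an r of at least 0.8 and 718 an r of -0.8 or below, and among the 35 other erythroid genes 4 had an r of at least 0.8 (*Fech*, *Bpgm*, *Sptb* and *Trim10*). These correlations run over 4 groups of samples and are a description without a p.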

How the data were processed

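Poly-A RNA of 12 lymph node and 9 skin libraries was sequenced in paired reads. The authors trimmed reads with cutadapt 4.8, aligned them to GRCm38 with STAR 2.7.8a and deposited RSEM 1.3.3 expected counts per gene, which are whole numbers without normalization (versions per the submitters' processing notes). The annotation release is not given in the sources used here, and reads of near-identical globins are divided by RSEM's model. Positions came from GENCODE M21 (55227 of 55491 identifiers matched) and sequences from RefSeq. Counts were fitted by tissue with edgeR 4.0.16 (filterByExpr, TMM, robust quasi-likelihood F-test) in R 4.3.3, with Benjamini-Hochberg adjustment over all tested genes and a threshold of 0.05. Standard errors were derived from F. The pipeline was tested on simulated counts. Exact permutation tests were two-sided.

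Members and lists were chosen with earlier results of these data known. Named were the 6 members and the genes of the other erythroid lists called in nodes, except 1 membrane gene called lower. The 2 most expressed uncalled genes of each of these lists were named too. So were the most expressed or absent marker of each cell list where it bore on a value, and the 10 genes most like the members. Some other genes (such as *Rhd* and *Epb42*) were named after their counts were seen, and some listed genes are not reported here by name. *Xist* held 3 to 42 counts in every node library, and 6 and 13 in L sample 6 and NL sample 3 against 3297 to 9353 in the other skin libraries, so *Xist* was tried as a covariate. In nodes all its counts were low, so there the covariate cannot adjust for sex. Changes in node calls with *Xist* are not read as an effect of sex. All libraries carry the label batch 1, so no batch could be compared. Alternatives were DESeq2 1.42.0, RLE and upper-quartile scaling, no filter, compared groups alone, members left out of library sizes, paralogs summed and each library left out. No column of the files was left unused.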

Additional observations from a re-analysis of the deposited data

Results flagged for a closer look

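Lesional skin was the 1 group large enough (4 libraries) for a test of whether a library stands apart from its group, and 11 measures of the members were examined, of which chance flags about 1 in 20. L sample 7 stood apart in *Alas2* per globin, with 69.8 *Alas2* counts per 1000 globin counts. Its distance to the next library was 0.9134 of the range of the group, past Dixon's limit for 4 samples. It also stood apart in *Slc4a1* per *Alas2*, with 2.32 counts per count, at 0.8292 of the range and so barely past the limit. In CPM, L sample 7 did not stand apart for any of the 6 genes. The UVB by genotype interaction in nodes called 0% of tested genes by edgeR.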

How the results depend on the processing

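The number of other erythroid genes called between WT UVB and WT nodes was the least stable value. It was 4, and became 8 with DESeq2, 10 with the compared groups alone and 0 with *Xist* as a covariate, and ran from 0 to 10 without 1 library. Over all genes the calls of this comparison ran from 0 without WT UVB sample 8 to 2644 without *Ifnk* TG UVB sample 12, against 805. DESeq2 called 1969 genes there, the compared groups alone 2431 and *Xist* as a covariate 212. The other node comparisons, with 0 calls, gave 137 (UVB in *Ifnk* TG), 2 and 19 (genotype without and with UVB) and 8 (interaction) with DESeq2, and NL against WT skin gave 80. L against NL skin gave 3156 genes with the compared groups alone against 4782. The cause was not tested. *Tfrc* lost its call with RLE scaling, no filter and *Xist*, *Slc25a37* with no filter and *Xist*, and *Cpox* with *Xist*. In *Ifnk* TG nodes after UVB the calls of other erythroid genes ran from 0 to 1, and in the other 3 node comparisons they stayed at 0 under every setting tried. The median log2 fold change of the members kept its direction in all 5 node comparisons under every setting. Without 1 library it ran from -3.91 to -2.54 for UVB in WT, -2.07 to -1.05 for UVB in *Ifnk* TG, 0.49 to 1.15 and 1.69 to 3.13 for the genotype without and with UVB, and 0.99 to 2.44 for the interaction, highest without WT UVB sample 9. Members called in L against NL skin ran from 0 to 1 without 1 library. The alpha to beta difference between nodes and skin, examined under alternatives chosen after seeing the data, ran from 0.45 to 0.50 without 1 library and was 0.49 without the WT UVB nodes (exact permutation p = 4.11e-05). No paired analysis was possible because sample numbers are unique within a tissue and the groups share none. Depth limits *Slc4a1* and *Hbb-bt* in WT UVB nodes.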
